A study of Saccharomyces cerevisiae with 2 samples.

Results

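The genes described here encode the Paf1 complex and the enzymes that attach ubiquitin to histone H2B or remove it in budding yeast (Saccharomyces cerevisiae). They were chosen by name: PAF1, CTR9, CDC73, RTF1 and LEO1 for the complex, RAD6, BRE1 and LGE1 for attachment, and UBP8 and UBP10 for removal. All 10 were measured, each by 1 probe set assigned to that gene alone, among 5656 genes with such a probe set. A probe set is the group of short DNA probes that reads 1 transcript on an Affymetrix array.

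The samples are 2 replicate cultures, 1 array each, of the histone H3 K4,36,79R mutant. In this strain arginine replaces the lysines at positions 4, 36 and 79 of H3. Cells also carried wild-type H3 under galactose control, and 18 hours in glucose had repressed that copy, so that both cultures share the mutant histone and the medium change. Wild-type cultures and other time points were not analysed here, so the values give levels in 18-hour mutant cells and how far the replicates lay apart, and no effect of the mutation was measured. The labels do not name the strain background or say whether the mutant was 1 clone, and each array mixes the differences of culture, labelling and hybridisation.

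The Paf1 complex travels with RNA polymerase II along transcribed genes. Through its Rtf1 subunit it stimulates the ubiquitin-conjugating enzyme Rad6 and its partner ligase Bre1 to attach a single ubiquitin to histone H2B. That mark is needed for full methylation of H3 by Set1 at lysine 4 and by Dot1 at lysine 79, while Set2 methylates lysine 36 in a manner tied more directly to the polymerase. By the study's design the mutant H3 lacks those lysines. The arrays do not measure the H3 protein or its modifications.

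The values are the MAS5 signals that the authors deposited, in arbitrary units. Because probe sets bind their targets with different affinity, a signal can be set against the same gene on the other array but not against another gene. The median over all 9335 probe sets was 25.5 on replicate 1 and 25.7 on replicate 2. The shared probe set of both histone H3 genes (HHT1 and HHT2) with the highest signal gave 1360 on replicate 1 and 1261 on replicate 2. Of their other shared probe sets, 1 gave 110 and 116, higher on replicate 2, and another 1.42 and 1.25. The brightest of them does not tell mutant from wild-type H3 and so is no check of the genotype. GAL1, the galactose-induced galactokinase, gave 7.23 and 6.67. For RNA quality, signal at the 3′ end over that at the 5′ end was 1.61 and 1.57 for actin and 2.85 and 3.25 for SPT15.

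All 10 genes gave a signal above background on both arrays. Background was the 95th percentile of 13 control probe sets, for mouse transcripts or other sequence foreign to yeast, 1.86 on replicate 1 and 1.69 on replicate 2. Of all genes 98.7% exceeded it on both arrays, so this count does not set the 10 genes apart. The nearest to it was CTR9, which was at least 4.69 times background on each array, and the farthest was CDC73, at least 49.9 times background.

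PAF1, the subunit that gives the complex its name, gave 43.1 on replicate 1 and 28.5 on replicate 2, a mean of 35.8 ± 10.4 (SD, n = 2). It was 1.51-fold lower on replicate 2, and its SD was 28.9% of its mean, the widest relative spread of the 10 genes. CTR9, a large scaffold subunit built of tetratricopeptide repeats, gave 8.70 and 10.4, a mean of 9.54 ± 1.18 (SD, n = 2), and was 1.19-fold higher on replicate 2.

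CDC73, the yeast counterpart of human parafibromin, gave 92.6 and 88.2, a mean of 90.4 ± 3.08 (SD, n = 2). Its arrays lay 1.05-fold apart. RTF1, the subunit whose histone modification domain contacts Rad6, gave 28.4 and 34.4, a mean of 31.4 ± 4.30 (SD, n = 2). It was 1.21-fold higher on replicate 2, the largest step upward among the 10 genes. LEO1, an acidic subunit that forms a module with Paf1, gave 46.8 and 50.9, a mean of 48.8 ± 2.93 (SD, n = 2).

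The log2 differences of the 5 subunits, replicate 2 minus replicate 1, ran from -0.60 for PAF1 to 0.28 for RTF1, with 3 subunits higher and 2 lower on replicate 2, where 56.4% of all genes were higher. CDC73, 1 of the lower 2, was close to level. PAF1 and RTF1, the lowest and the highest of the 5, lay 0.88 apart on this log2 scale.

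RAD6, the ubiquitin-conjugating enzyme of this mark, which also serves DNA damage tolerance and protein degradation, gave 53.6 on replicate 1 and 60.0 on replicate 2. Its mean was 56.8 ± 4.49 (SD, n = 2) and its arrays lay 1.12-fold apart. BRE1, the RING-finger ligase that directs Rad6 to H2B, gave 37.2 and 37.5, a mean of 37.3 ± 0.211 (SD, n = 2). Its SD was 0.566% of its mean, the narrowest of the 10. LGE1, a partner of Bre1 named for the large cells of its deletion mutant, gave 36.0 and 33.4, a mean of 34.7 ± 1.88 (SD, n = 2).

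Between the arrays, all 3 genes of the attachment step lay within 1.2-fold, and so did 84.6% of all genes. The log2 differences were 0.16 for RAD6, 0.01 for BRE1 and -0.11 for LGE1.

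The genes of the removal step differed from each other in how well their arrays matched. UBP8, the ubiquitin-specific protease of the SAGA coactivator complex, gave 20.2 on replicate 1 and 13.5 on replicate 2, a mean of 16.8 ± 4.73 (SD, n = 2). It was 1.495-fold lower on replicate 2, with a log2 difference of -0.58 just inside the 1.5-fold line of 0.585. UBP10, a ubiquitin-specific protease that acts outside SAGA and contributes to telomeric silencing, gave 39.7 and 42.4, a mean of 41.1 ± 1.90 (SD, n = 2). Its arrays lay 1.07-fold apart.

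**Figure D1:**
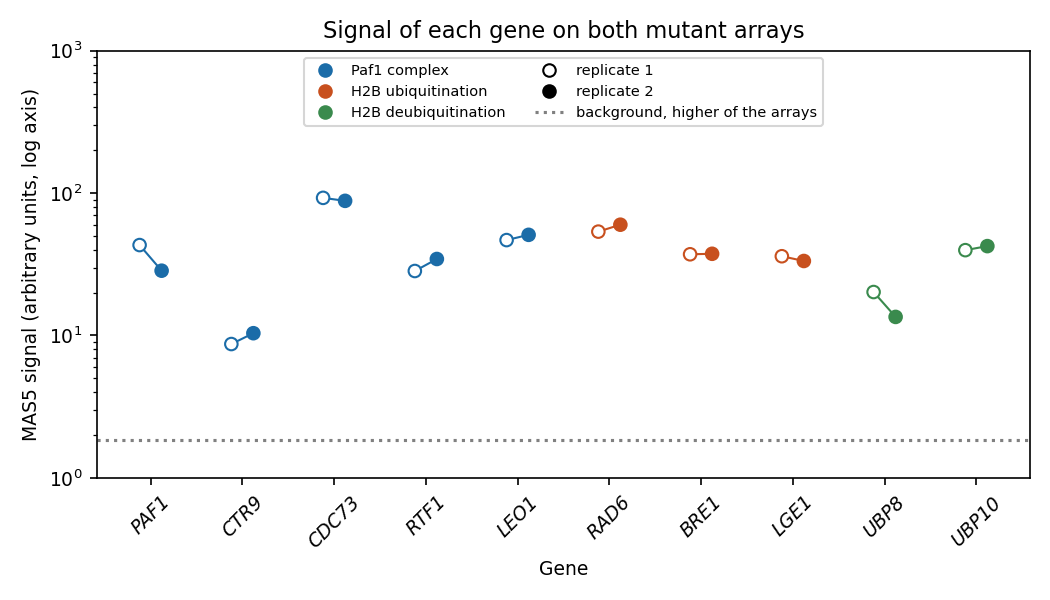
MAS5 signal (arbitrary units, log axis) of the 10 genes on replicate 1 (open) and replicate 2 (filled), coloured by role, with the background signal dotted. The steep lines are PAF1, from 43.1 to 28.5, and UBP8, from 20.2 to 13.5, while BRE1 is level at 37.2 and 37.5; heights of different genes are not comparable.

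Between the arrays, 1 of the 10 genes, PAF1, was over 1.5-fold apart, and this was also the case for 2.16% of all 5656 genes. With 1 array on each side no test of this difference exists. Over 1.5-fold lower on replicate 2 were 1 of the 10 genes and 1.11% of all genes, and over 1.5-fold higher were 0 of the 10 and 1.04% of all. Within 1.2-fold lay 7 of the 10 genes, and 84.6% of all genes did so. The median log2 difference was 0.05 over the 10 genes and 0.03 over all genes, and 6 of the 10 were higher on replicate 2, as were 56.4% of all genes. The median size of the difference, without its sign, was 0.14 for the 10 and 0.11 for all genes. The 2 wide differences, of PAF1 and UBP8, both ran toward lower signal on replicate 2.

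How far the arrays lay apart depended on signal, and the genes fall in different parts of that range. Genes were divided into quartiles of mean log2 signal, with limits at 19.9, 39.2 and 85.5 signal units. The SD of the log2 difference over the genes of each quartile was 0.41, 0.20, 0.16 and 0.14, from the dimmest to the brightest. CTR9 and UBP8 were in the dimmest quartile, where 6.72% of genes were over 1.5-fold apart, 39 of them lower on replicate 2 and 56 higher. UBP8 lay toward the upper limit of that quartile. PAF1, RTF1, BRE1 and LGE1 were in the next, where 1.2% were, 15 of them lower on replicate 2 and 2 higher, PAF1 being 1 of the 15. LEO1, RAD6 and UBP10 were in the third quartile, with 0.424% over 1.5-fold apart, and CDC73 in the brightest, with 0.283%.

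**Figure D2:**
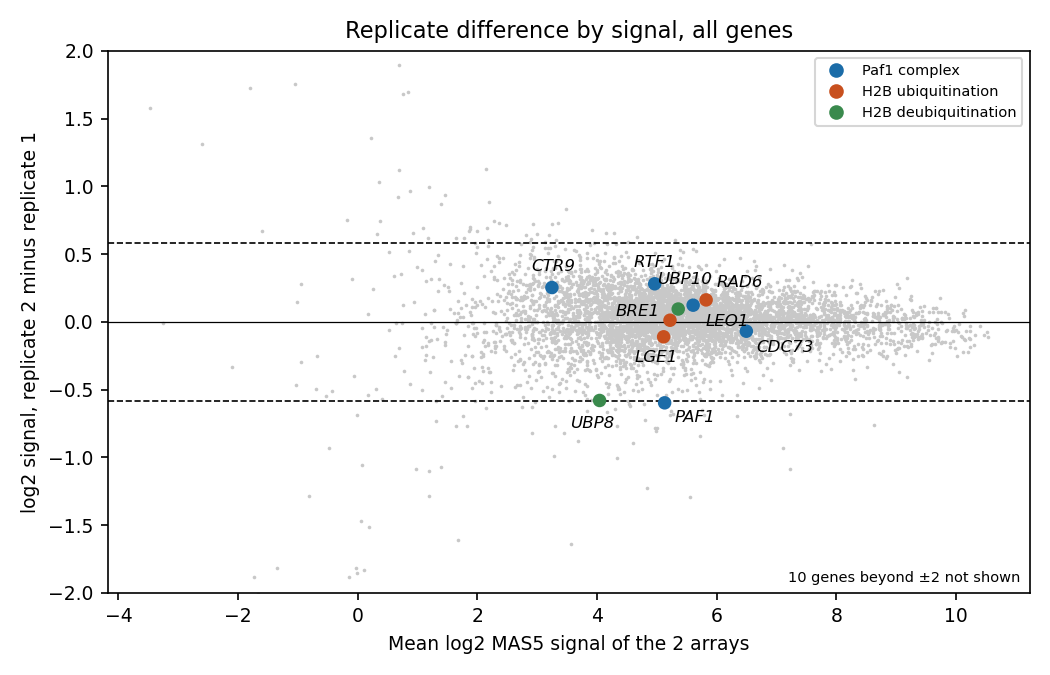
log2 difference between the arrays (replicate 2 minus replicate 1) against mean log2 MAS5 signal for all genes (grey) and the 10 named genes (coloured by role); dashed lines mark 1.5-fold, and 10 genes beyond 2 log2 units are not shown. PAF1, at -0.60, and UBP8, at -0.58, lie at the lower dashed line, and the other 8 lie inside the cloud between -0.11 and 0.28.

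Probe set numbers on this array mostly follow the order of genes along the chromosomes, and 17 of the 20 genes adjacent to these 10 had the next probe set number. The differences of adjacent genes can therefore be set beside those of the members. Of the 20, 15 had a difference of the same sign as the member they flank, and 61.5% of all 5118 adjacent measured pairs shared a sign. One of the 15, SWT21 beside UBP10, was under background on replicate 1. None of the 20 (0 of 20) was over 1.5-fold apart, beside 2.16% of all genes, a share too small for this count to set the 20 apart. Beside PAF1, SAF1 gave 55.0 on replicate 1 and 41.0 on replicate 2, a log2 difference of -0.43, while DPB3 on the other side gave 33.97 and 36.84, a log2 difference of 0.12. Beside UBP8, FSH2 differed by -0.04 and MRE11 by -0.22 on the log2 scale. PAF1 and UBP8 were thus lower on replicate 2 by more than either of their adjacent genes.

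Of the 6 members that were higher on replicate 2, RTF1, RAD6, CTR9 and LEO1 had both adjacent genes higher there, and UBP10 and BRE1 had 1 higher and 1 lower. RTF1, at 0.28, lies between GUS1, at 0.18, and TAD1, at 0.40. RAD6, at 0.16, has PKP2 at 0.16 and GEP7 at 0.32 beside it. CTR9, at 0.25, is flanked by PSF3 at 0.14 and NOP8 at 0.18. LEO1, at 0.12, lies between PFY1, at 0.01, and UBP2, another ubiquitin-specific protease gene, at 0.03. Beside UBP10, at 0.09, MRPL19 stood at -0.15, and beside BRE1, at 0.01, RPL31A stood at -0.15 and AHK1 at 0.04.

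Over the 100 probe sets nearest in number (99 with a signal on both arrays for RTF1), the median log2 difference was 0.08 around RTF1, 0.07 around LEO1, 0.06 around RAD6 and 0.06 around CTR9. It was 0.00 around PAF1 and -0.03 around UBP8 and CDC73. After this median was subtracted, RTF1 differed by 0.20, CTR9 by 0.19, RAD6 by 0.10 and LEO1 by 0.05. PAF1 stood at -0.60 and UBP8 at -0.55, farther from 0 than any of the other 8 genes. Neighbours with a signal at or above the array median of 25.6 were also counted. Around PAF1, 3 of 60 (5.0%), SAF1 included, had a log2 difference below -0.4. Of all genes that bright 1.41% did, a share over genes, whereas the neighbours are probe sets with or without a gene of their own. Around BRE1, whose own arrays matched, it was 4 of 64. The count was 1 of 54 around CDC73, 0 of 65 around UBP8 and 0 around each remaining member. The part of these surroundings in the differences was not tested.

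**Figure D3:**
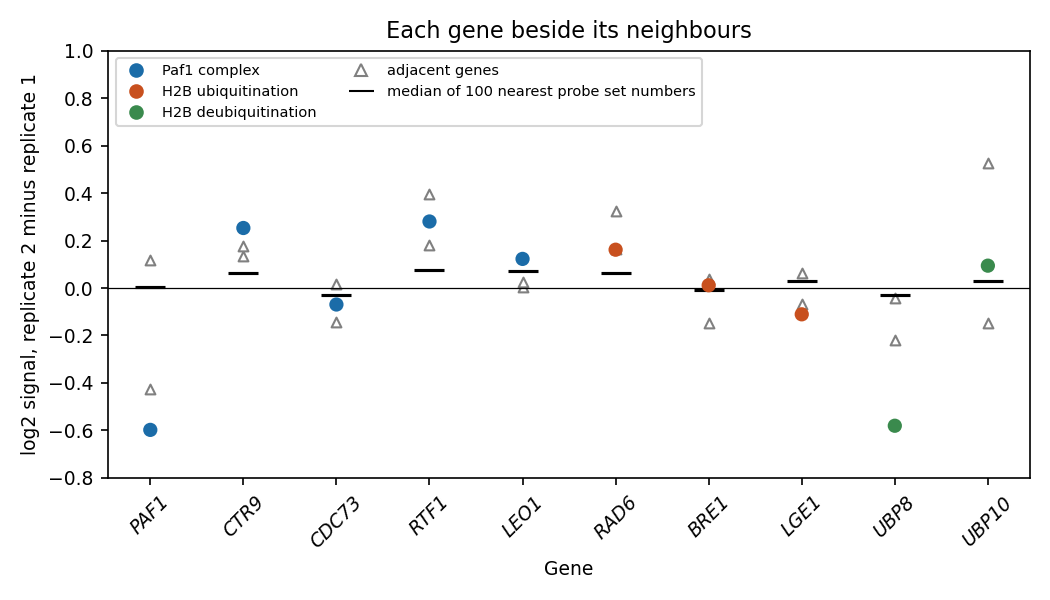
log2 difference between the arrays for each of the 10 genes (filled circles, coloured by role), for the adjacent genes on its chromosome (triangles) and as the median of the 100 probe sets nearest in number (bars). PAF1 and UBP8 lie below their adjacent genes and their local medians of 0.00 and -0.03, whereas RTF1 and RAD6 lie between or level with their adjacent genes.

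Genes that act around this pathway were read in the same way. Of 53 genes in 8 lists, 50 had a probe set of their own, and 42 of these lay within 1.2-fold, 84.0% of them beside 84.6% of all genes. Over 1.5-fold apart were 2 of the 50, both lower on replicate 2, beside 2.16% of all genes in either direction and 1.11% lower. These were UBP11, a ubiquitin-specific protease gene, at 47.5 and 30.1, and RAD5, a ligase that acts with Rad6 in DNA damage tolerance, at 34.1 and 22.4. The median log2 difference of the 50 was 0.05. The genes without a probe set of their own were SUS1 of the SAGA module and the ubiquitin fusion genes RPL40A and RPL40B, which share theirs.

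Directly downstream, the 8 subunits of COMPASS, the complex around Set1, had a median log2 difference of 0.00, with 4 higher and 4 lower on replicate 2. The widest was SWD1, at 28.6 and 22.3, and the closest SWD2, at 39.1 and 41.0. DOT1 gave 10.3 and 12.8 and SET2 gave 5.35 and 6.25. Both were higher on replicate 2, in the dim range where the arrays scatter most.

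Both measured partners of Ubp8 in the SAGA deubiquitination module lay within 1.2-fold between the arrays, as did 84.6% of all genes. SGF11, which activates the protease, gave 41.2 on replicate 1 and 41.3 on replicate 2, and SGF73, which anchors the module, gave 45.1 and 49.6. Among the 14 other ubiquitin-specific protease genes the median log2 difference was 0.06. On replicate 2, 10 of them (71.4%) were higher and 4 lower, where 56.4% of all genes were higher. Within 1.2-fold lay 9 of the 14 (64.3%), a smaller share than the 84.6% of all genes. Of those outside it, DOA4, UBP7 and UBP16 were in the dimmest quartile, where 67.6% of all genes lay within 1.2-fold. UBP11 and UBP13 were in the next, where 85.0% did. UBP11, named above, was the widest. UBP15 was the closest, at 51.0 and 51.1.

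Among the kinases and cyclins of elongation, which include SGV1 and BUR2, the pair required for Paf1 complex recruitment, all 7 lay within 1.2-fold and the median log2 difference was 0.03. The widest was CTK2, at 31.0 and 35.9, and the closest KIN28, at 24.43 and 24.96. All 9 elongation factors, including the FACT subunits SPT16 and POB3, lay within 1.2-fold too, with a median of 0.00. Of all genes 84.6% lay within that limit, and in the brightest quartile 94.8%. SPT16 was the widest of them, at 111.9 and 98.2, and ELF1 the closest, at 149.8 on both arrays.

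The substrates of the reaction were read from 4 genes. HTB1 and HTB2, which encode H2B, differed by 0.07 and -0.21 on the log2 scale. Of the ubiquitin genes, UBI4, the stress-inducible polyubiquitin gene, gave 473.4 and 537.3, and RPS31, a ubiquitin fusion with a ribosomal protein, gave 1134 and 953.2. Among the other partners of Rad6, UBR1, the ligase of the N-degron pathway, gave 129.3 and 133.0, and UBA1, the ubiquitin-activating enzyme, gave 142.9 and 171.3. RAD18, the ligase that directs Rad6 to the replication clamp, gave 17.1 and 17.9.

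**Figure D4:**
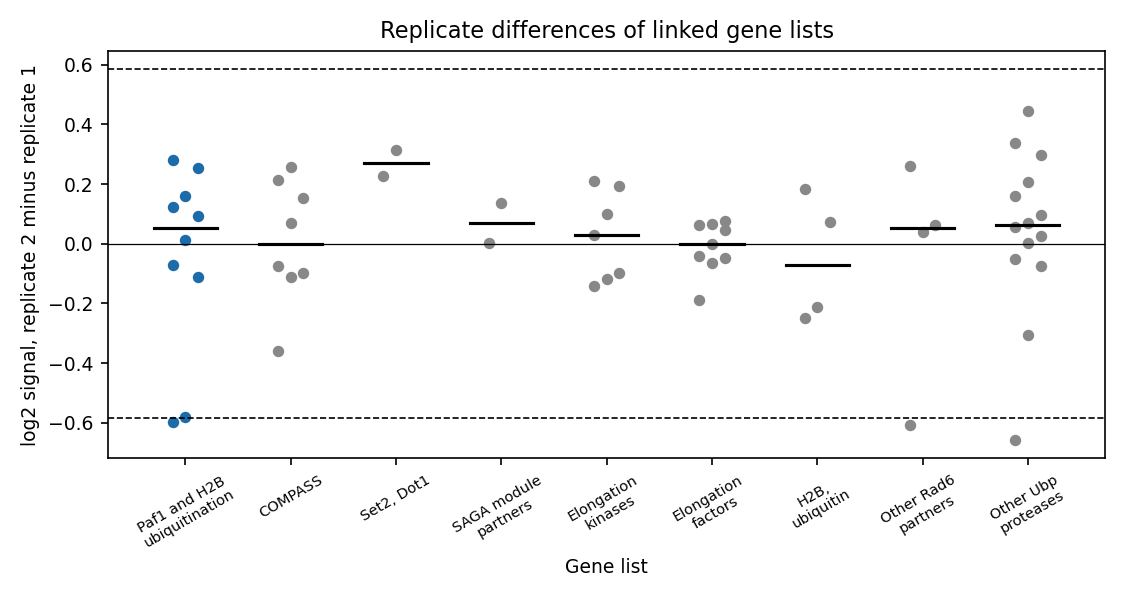
log2 difference between the arrays for the 10 Paf1 and H2B ubiquitination genes (blue) and the genes of 8 linked lists (grey), with medians as bars and 1.5-fold as dashed lines. PAF1 lies past the lower line, with RAD5 and UBP11 of the linked lists, and the elongation factor and kinase lists lie within 1.2-fold.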

How the data were processed

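Total RNA, about 20 µg per sample, was made into biotin-labelled cRNA and read on 1-colour Affymetrix arrays, per the labels' protocols. Harvest was at an OD600 between 0.5 and 0.7. The deposited values are linear intensity values from MAS5, which the authors ran per the submitters' processing notes; which version, settings and scaling target they used was not given in the sources used here. The number of arrays limits the precision.

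Signals were used as deposited, on the log2 scale without an offset. Genes were named through the platform annotation, which can be old: 6504 probe sets had 1 symbol, 328 several and 2503 none. For a gene with several probe sets the brightest was used, by mean log2 signal. All 10 genes matched the RefSeq table of assembly R64, which served for names and gene order only. No build is named, so no coordinates are given. With 1 group no test between groups was possible, and fold thresholds of 1.5 and 1.2 describe the arrays. The text names all 10 genes, the genes with the widest and the closest arrays in each linked list, and further genes chosen after their values were seen. The genes and lists were chosen with earlier results of these data known. The procedure was run on simulated data (Python 3.11.15, statsmodels 0.14.6), with even noise smaller than the scatter between these arrays. The genes changed there were brighter than CTR9 and UBP8. That run therefore checked the calculation and not the fold counts given here.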

Additional observations from a re-analysis of the deposited data

How the results depend on the processing

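The alternatives were median centring, quantile normalization, loess (span 0.3), centring on the 100 nearest probe set numbers, averaging the probe sets of each gene, and an offset of 16. For the linked lists and the single differences of PAF1 and UBP8 they were chosen after seeing the data. Averaging could not change the values of the 10 genes, which have 1 probe set each. Of the 10 genes, 1 was over 1.5-fold apart as deposited. That count was 2 with median centring, quantile normalization and loess, which took UBP8 past the line at -0.61, -0.60 and -0.63, and 0 with the offset, which shrinks every difference by construction. The PAF1 difference ran from -0.64 to -0.41 and that of UBP8 from -0.63 to -0.29, with the offset giving the smallest of each. The percent of all genes over 1.5-fold apart, 2.16%, was 2.14% with quantile normalization and 2.21% with loess, and was not counted with median centring. It was 0.159% with the offset and 0.561% with a signal at or above the array median. The median difference of the 10 genes ran from 0.01 to 0.05, and 5 or 6 were higher on replicate 2: with each of the first 3 scalings it was 5, and BRE1 was the gene that changed sign. The median of SET2 and DOT1 was 0.10 with the offset, that of the elongation factors -0.0301 with quantile normalization and -0.0385 with local centring, and the count of linked genes over 1.5-fold apart was 1 with local centring, 0 with the offset, 3 with averaged probe sets and 2 with the others. With averaged probe sets the gene added was UBP9, whose second probe set, at 0.524 and 1.41, was under background on both arrays. The cause of the changes with quantile normalization and local centring was not tested. All 10 genes were above background with the brightest foreign probe set and with 2 times the threshold. The share of all genes past either of these limits was not counted, so this does not set the 10 genes apart. Leaving out either array gave the signals printed for the other. No paired analysis was possible because only 1 group was analysed. Signals in the dimmest quartile, where CTR9 and UBP8 lie, limit what can be read of those genes.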
